A study of Homo sapiens with 24 samples.

Results

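The stretch from 11 to 12 Mb of chromosome 6 (GRCh37), which holds the genes TMEM170B and ADTRP, was described across 8 chromatin immunoprecipitation (ChIP-seq) peak lists. Its members are the peaks on chromosome 6 whose midpoint lies in that 1 Mb. There were 132 of them among 13347 peaks in all lists, and 28 of the 455 reproducible ones. The stretch was picked for its number of reproducible peaks in these same lists, so its counts and heights are given as a description, with no test.

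The lists come from HCC827, a human lung adenocarcinoma line that carries a mutated EGFR. Parental cells were untreated, and osimertinib-resistant cells were kept in 1 µM osimertinib, an inhibitor of mutant EGFR. In each state there were wild-type cells and cells labelled as overexpressing METTL7A with a MYC tag and FLAG (called METTL7A below), and each was precipitated with IgG, the isotype control, or with a MYC-tag antibody. This gives 8 groups of 2 replicates with 1 peak list per group, and a further 4 groups of input DNA without a list among the files used. METTL7A is a membrane-associated methyltransferase. The antibody's epitope is a stretch of human MYC, so it can also bind MYC itself. What promoter drives the tagged METTL7A, and whether the cells are a clone, is not given in the sources used here.

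TMEM170B encodes a small multi-pass membrane protein that has been described as an inhibitor of Wnt signalling in breast cancer. ADTRP encodes a membrane hydrolase of fatty acid esters of hydroxy fatty acids and was named for its regulation of tissue factor pathway inhibitor, a brake on blood clotting. In the RefSeq gene table the protein-coding genes run in the order NEDD9 (a scaffold protein of adhesion signalling), TMEM170B, ADTRP and HIVEP1 (a zinc finger transcription factor). A ChIP-seq peak marks a place where reads of the precipitated DNA pile up above a control or local background. DNA present in more copies gives more reads with any antibody, and copy number was not measured here.

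Matched peaks lay at the starts of both genes, which differ in base composition, so their upstream sequences are shown. Both members matched the RefSeq promoter table (GRCh38.p14). The 250 bases before each start are printed 5′ to 3′ on the gene's own strand, with CG dinucleotides in capitals. TMEM170B is on the plus strand and ADTRP on the minus strand.
TMEM170B: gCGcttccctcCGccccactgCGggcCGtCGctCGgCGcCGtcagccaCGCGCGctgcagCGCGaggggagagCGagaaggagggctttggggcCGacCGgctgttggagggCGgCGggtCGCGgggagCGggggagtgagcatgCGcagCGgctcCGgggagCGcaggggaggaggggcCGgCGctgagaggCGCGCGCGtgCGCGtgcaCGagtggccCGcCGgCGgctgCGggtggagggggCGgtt
ADTRP: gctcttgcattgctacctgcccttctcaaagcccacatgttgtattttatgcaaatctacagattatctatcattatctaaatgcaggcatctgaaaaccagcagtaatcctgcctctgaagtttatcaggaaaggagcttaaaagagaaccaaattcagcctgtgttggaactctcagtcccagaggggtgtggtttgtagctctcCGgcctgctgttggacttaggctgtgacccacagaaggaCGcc

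The TMEM170B sequence is 78.8% G or C with 39 CG dinucleotides. Of 35116 RefSeq promoter sequences of this length, 95.4% have a lower G and C content, and the median is 58% with 11 CG dinucleotides. The ADTRP sequence is 46.4% G or C with 2 CG dinucleotides, and 24.7% of the promoters have a lower G and C content. The letters CACGTG, the motif classically bound by MYC, read the same on both strands. They occur 0 times in each of the 2 sequences and in 6.34% of all promoters. The absence of these letters from this window says nothing about binding elsewhere.

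All 132 peaks but 1 lay within 339 kb, at 6:11499137–11838275. The remaining one, of the resistant wild-type MYC-tag list (6:11933061–11933688, height 3.98), lay 94.8 kb further on. Height here is the −log10 p-value of the peak caller in the lower of the 2 replicates, as deposited by the authors. Heights may be compared within a list, and across lists they share no scale. On either side of the members the 8 lists held no peak for 1.42 Mb towards the chromosome end and for 1.55 Mb towards the centromere. The 2 Mb on each side (9 to 11 Mb and 12 to 14 Mb) held 2 peaks together. These were a parental wild-type IgG peak (6:13487080–13487628, height 6.16) and a resistant wild-type IgG peak (6:10074930–10075490, height 3.30), neither of them reproducible. The stretches around NEDD9 and HIVEP1 therefore held no peak that reached a list, apart from the single far peak named above.

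**Figure D1:**
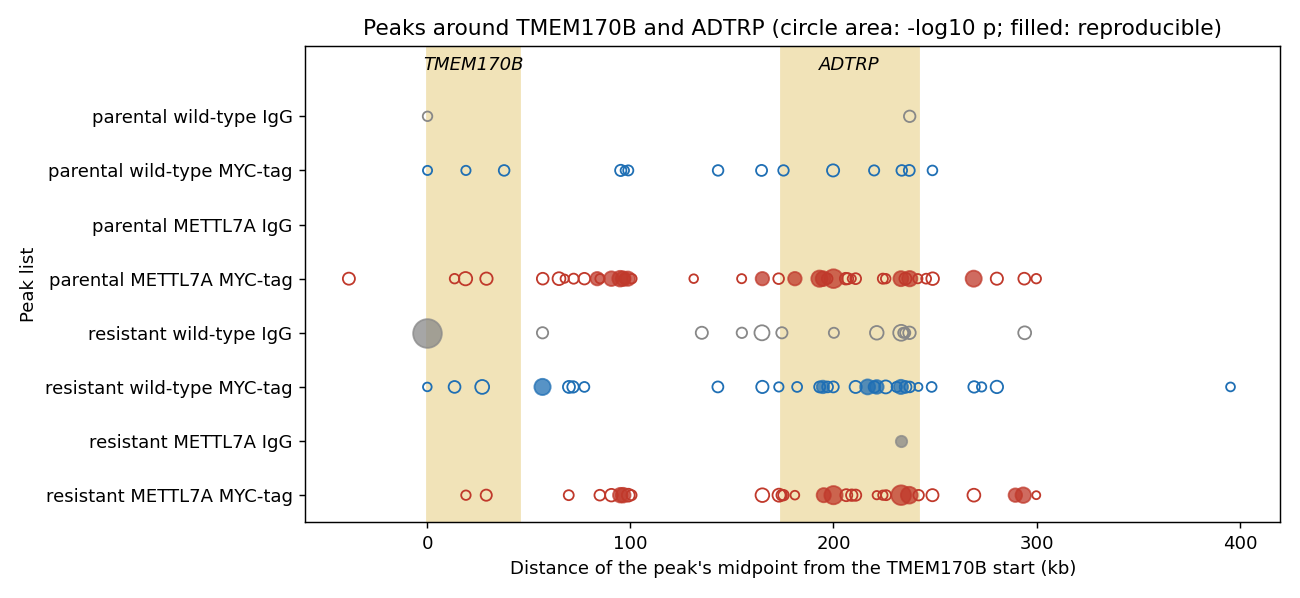
Peaks of the region in each of the 8 lists. The x axis is the distance of a peak's midpoint from the TMEM170B start in kb, each row is 1 list, circle area is proportional to the height (−log10 p of the lower replicate), filled circles are reproducible, and shading marks the genes (grey IgG, blue wild-type MYC-tag, red METTL7A MYC-tag). Circles crowd in and before ADTRP in the MYC-tag rows, while the largest circle is the resistant wild-type IgG peak at the TMEM170B start (42.1).

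By list, the region held 2 of 1444 matched peaks in parental wild-type IgG, 14 of 1005 in parental wild-type MYC-tag, 0 of 70 in parental METTL7A IgG and 42 of 2271 in parental METTL7A MYC-tag. "Matched" peaks are all those of a list, found in both replicates. In resistant cells it held 13 of 2529 in wild-type IgG, 30 of 2767 in wild-type MYC-tag, 1 of 96 in METTL7A IgG and 30 of 3165 in METTL7A MYC-tag. The METTL7A IgG lists are 70 and 96 peaks long, and 0 of 70 allows a share of up to 4.29% when 3 peaks are set in place of 0 (exact 95% upper bound 5.13%). As a share of the list, the region made up 0.139% (exact 95% binomial interval 0.0168 to 0.499) of parental and 0.514% (0.274 to 0.877) of resistant wild-type IgG peaks. Its share of the wild-type MYC-tag lists was 1.39% (0.764 to 2.33) in the parental and 1.08% (0.733 to 1.54) in the resistant state. Its share of the METTL7A MYC-tag lists was 1.85% (1.34 to 2.49) and 0.948% (0.640 to 1.35). The intervals take in counting error alone, and peaks this close together depend on one another. So the wild-type MYC-tag count was larger in resistant cells while its share of a longer list was not, and the METTL7A MYC-tag count and share were both smaller there.

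Against the flanks, the density of matched peaks was at least 18.7-fold higher in the parental wild-type MYC-tag list, at least 56-fold higher in the parental METTL7A MYC-tag list and at least 40-fold higher in both resistant MYC-tag lists. These flanks held 0 peaks, and the bounds set 3 peaks over the 4 Mb of a list's flanks. The resistant wild-type IgG list had 13 peaks per Mb against 0.25, a ratio of 52 (exact interval 7.81 to 2210). The other IgG lists held too few peaks for a ratio. The MYC-tag lists and the resistant wild-type IgG list thus placed their peaks in the same 339 kb and almost none beside it.

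**Figure D2:**
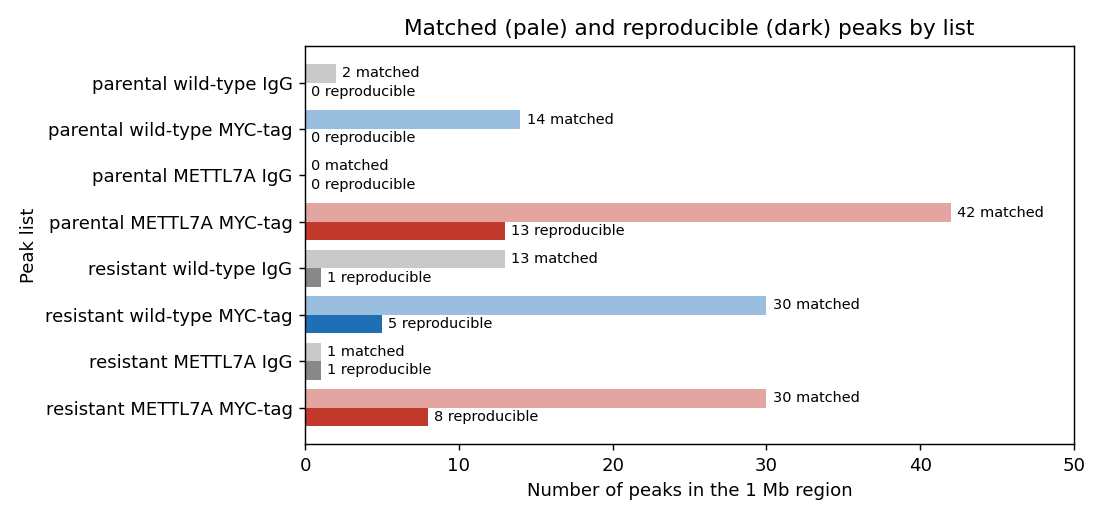
Number of matched (pale bars) and reproducible (dark bars) peaks of the region on the x axis for each of the 8 lists on the y axis, in grey for IgG, blue for wild-type MYC-tag and red for METTL7A MYC-tag. The parental METTL7A MYC-tag list has the longest bars, at 42 and 13, and the parental METTL7A IgG list has none.

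Reproducible peaks, those at a global irreproducible discovery rate (IDR) of 0.05 or less, numbered 13 in parental METTL7A MYC-tag, 8 in resistant METTL7A MYC-tag, 5 in resistant wild-type MYC-tag, 1 in resistant wild-type IgG and 1 in resistant METTL7A IgG. In the same order, these were 8.97%, 7.69%, 7.94%, 5.0% and 7.69% of the 145, 104, 63, 20 and 13 reproducible peaks of the lists. Exact 95% intervals were 4.86 to 14.8, 3.38 to 14.6, 2.63 to 17.6, 0.127 to 24.9 and 0.195 to 36.0. The other lists had 0 in the region. Of 31 reproducible peaks in parental wild-type IgG, 26 in parental wild-type MYC-tag and 53 in parental METTL7A IgG, a count of 0 allows shares of up to 9.68%, 11.5% and 5.66% when 3 peaks are set in place of 0. The exact 95% upper bounds are 11.2%, 13.2% and 6.72%. The 13 of 42 peaks in parental METTL7A MYC-tag come to 31% of the region's peaks in that list, beside 6.38% of the whole list. For resistant METTL7A MYC-tag the shares were 26.7% and 3.29%, for resistant wild-type MYC-tag 16.7% and 2.28%, and for resistant wild-type IgG 7.69% and 0.791%. In the lists with 0 or 1 peak called here, the whole-list shares were 2.15% (parental wild-type IgG), 2.59% (parental wild-type MYC-tag), 75.7% (parental METTL7A IgG) and 13.5% (resistant METTL7A IgG). The region was chosen on these calls, and nothing is read from the difference.

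The threshold fell close to members in 2 lists. In resistant wild-type MYC-tag the weakest call by IDR was at 0.0413 (height 10.4) and the first peak beyond it at 0.0517 (9.84). In resistant METTL7A MYC-tag they were 0.0375 (9.34) and 0.0536 (8.43). In parental METTL7A MYC-tag they lay further apart, at 0.0222 (11) and 0.0754 (9.05). The IDR does not follow the lower height alone. Resistant wild-type MYC-tag also called a peak of 8.06 (IDR 0.0274), and parental METTL7A MYC-tag one of 9.22 (0.0177). The highest parental wild-type MYC-tag peak of the region reached an IDR of 0.0737 (7.57), and no reproducible peak of that whole list was below a height of 8.42.

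Joined wherever peaks of any list overlapped by at least 1 bp, the members made 57 positions of 281 to 2132 bp (median 774). The 56 positions of the 339 kb covered 14.9% of it, with a median gap of 2874 bp between neighbours. Of the 57, 5 lay in the body of TMEM170B, 1 at its start, 20 between the genes, 21 in ADTRP and 9 beyond ADTRP. The first stood alone before TMEM170B (6:11499137–11499910, parental METTL7A MYC-tag, height 7.44). Gene bounds are approximate on GRCh37 (TMEM170B start near 11538000, ADTRP near 11712000 to 11780000), and exons and introns were not annotated. Per 100 kb the 8 lists together held 85.3 matched peaks in ADTRP, 32.8 between the genes, 22.1 in the body of TMEM170B and 8.18 from ADTRP to 12 Mb.

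At the TMEM170B start (6:11537472–11538913) the 4 wild-type lists had a peak and the 4 METTL7A lists had none. The METTL7A IgG lists hold only 70 and 96 peaks in all, so absence from them says little. The resistant wild-type IgG peak was at 42.1 in the first replicate of the file and 58.8 in the second, and was the only reproducible one. It was the second highest of the 2529 peaks of its list. In the other wild-type lists the second replicate was much higher than the first. The replicates gave 4.66 and 16.3 in parental wild-type IgG, 4.29 and 20.9 in parental wild-type MYC-tag, and 3.83 and 30.4 in resistant wild-type MYC-tag. Because a height is the lower of the replicates, these peaks ranked 402, 541 and 1636 in their lists. A peak in all 4 wild-type lists and in no METTL7A list was found at 16 of 11138 positions of the genome (0.144%), and this was the 1 such position of the region. The pattern needs 4 lists, and only 138 positions of the genome and 6 of the region were in 4 or more. A position missing from a list need not lack reads, since both replicates had to pass the caller.

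The body of TMEM170B carried 9 matched peaks at 5 positions, none of them reproducible. Resistant wild-type MYC-tag had a peak of 9.84 there (6:11564976–11565256), in no other list. A position in parental METTL7A MYC-tag at 9.05 (6:11556580–11557402) had matched peaks at 4.58 in resistant METTL7A MYC-tag and 4.40 in parental wild-type MYC-tag. Another (6:11566751–11567567) was held by both METTL7A MYC-tag lists and no other, at 7.81 in parental and 6.38 in resistant cells. No IgG list had a peak in the gene body.

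Between the genes, 7 positions were reproducible in at least 1 list. The one nearest TMEM170B (6:11594564–11595175) was the highest peak of the region in resistant wild-type MYC-tag, at 13.5 in the first and 16.3 in the second replicate. Resistant wild-type IgG had a peak there of 6.51 and parental METTL7A MYC-tag one of 7.02. The next 5 reproducible positions were called in METTL7A MYC-tag lists and in no wild-type list, and together spanned 16.2 kb. Genome-wide, the METTL7A MYC-tag lists had 145 and 104 calls (parental, resistant). Wild-type MYC-tag lists had 26 and 63 calls, and wild-type IgG lists 31 and 20. Of the 145 and 104 calls, 71.0% and 82.7% overlapped a matched peak of a wild-type or IgG list.

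The first of these 5 positions (6:11621293–11622091, 9.22) was in parental METTL7A MYC-tag alone. The next (6:11628394–11629051) had 11 in parental and 8.08 in resistant METTL7A MYC-tag and no peak in another list. At 6:11632424–11633642 the heights were 12.6 and 11 in those lists, both reproducible, and parental wild-type MYC-tag had a matched peak of 6.51. At 6:11634258–11634803 both were reproducible, at 11 and 11.1, with no peak in any other list. At 6:11636468–11637481 the parental METTL7A peak of 10.5 was reproducible, and matched peaks stood at 8.43 in resistant METTL7A and 5.24 in parental wild-type MYC-tag. No IgG list and no resistant wild-type MYC-tag list had a peak at these 5 positions, which were grouped after their values were seen. Over the whole region, 7 of 13 parental METTL7A MYC-tag calls overlapped a resistant wild-type MYC-tag peak (53.8%, against 53.8% of 145). With resistant wild-type IgG it was 4 of 13 (30.8%, against 41.4%), so nothing is read from the run. The seventh reproducible position between the genes (6:11702070–11703847), 8.15 kb short of ADTRP, was held by 5 lists. It was reproducible in parental METTL7A MYC-tag (9.25), and stood at 9.51 in resistant METTL7A MYC-tag, 11.5 in resistant wild-type IgG, 7.70 in resistant and 6.21 in parental wild-type MYC-tag.

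In ADTRP, 8 of 21 positions were reproducible in at least 1 list, and 3 of them were held by 5 or 6 lists. The one called in most lists, 4, was at 6:11770375–11772506, in the part of the gene near its start. Resistant METTL7A MYC-tag reached 22.9 and 19.7 in its replicates there, the ninth highest of 3165 peaks. Parental METTL7A MYC-tag had 11.6 and 37.1, and resistant wild-type MYC-tag 10.4 and 11. Resistant METTL7A IgG had 9.82 and 6.61, its only peak of the region and the tenth highest of its 96. These 4 peaks were reproducible, so IgG and MYC-tag precipitations of the same resistant METTL7A cells shared this position. Resistant wild-type IgG had a matched peak of 12.8 there with a second one of 5.10 beside it, and parental wild-type MYC-tag one of 5.78.

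At 6:11774935–11776033 a peak was found in 6 lists. It was reproducible at 14.4 in resistant and 12.1 in parental METTL7A MYC-tag. The wild-type lists had 7.96 (resistant IgG), 6.74 (parental IgG), 6.09 (parental MYC-tag) and 5.88 (resistant MYC-tag), all short of the threshold. The parental IgG value was the highest of the region in that list. In the middle of the gene, at 6:11736897–11739027, parental METTL7A MYC-tag had 17.9 and 21.3 in its replicates and resistant METTL7A MYC-tag 17 and 23.2, both reproducible. Parental wild-type MYC-tag had its highest peak of the region there (7.57), resistant wild-type MYC-tag had 6.13 and resistant wild-type IgG 5.26.

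A position at 6:11732410–11734008 was reproducible in 3 MYC-tag lists, with 11.3 in parental METTL7A, 10.3 in resistant METTL7A and 8.06 in resistant wild-type cells. In the last of these the replicates gave 23.3 and 8.06. Parental METTL7A MYC-tag also called 6:11730923–11731411 (13.6, with 6.18 in resistant wild-type MYC-tag) and 6:11718429–11719494 (9.34, with 3.91 in resistant METTL7A MYC-tag). Resistant wild-type MYC-tag called 2 positions of this gene that neither METTL7A MYC-tag list called. One (6:11754153–11755350, 11.5) was in no other list. The other (6:11759047–11759514, 9.65) had matched peaks of 9.42 in resistant wild-type IgG and 3.56 in resistant METTL7A MYC-tag. Of the 5 resistant wild-type MYC-tag calls of the whole region, 3 overlapped a parental METTL7A MYC-tag peak (60%, against 66.7% of that list's 63). Likewise 3 overlapped a resistant METTL7A MYC-tag peak (60%, against 65.1%). The ADTRP start itself, at the upper bound of the gene, had matched peaks in 3 MYC-tag lists (6:11778890–11780077). They stood at 5.66 in resistant METTL7A, 4.44 in parental METTL7A and 3.31 in resistant wild-type cells, none reproducible. The position at 6:11774935–11776033 given above, with peaks of all 4 wild-type lists, lies within 5000 bp of this bound, the distance used for the TMEM170B start.

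Beyond ADTRP, 3 of 9 positions were reproducible, each in 1 list. These were 6:11806616–11807521 in parental METTL7A MYC-tag (13.3), and 6:11827257–11827820 (9.34) and 6:11830468–11832409 (12.3) in resistant METTL7A MYC-tag. At the first, matched peaks stood at 8.40 in resistant METTL7A and 6.71 in resistant wild-type MYC-tag, and at the last at 7.14 in parental METTL7A MYC-tag and 8.45 in resistant wild-type IgG. A position at 6:11786047–11787388 was in all 4 MYC-tag lists and no IgG list, with none reproducible. The METTL7A lists gave 8.11 (parental) and 7.52 (resistant) there, and the wild-type lists 4.82 and 4.96. From 6:11806616 on, neither parental wild-type list had a peak. These lists held only 2 (IgG) and 14 (MYC-tag) peaks in the whole region, and 0 and 1 beyond ADTRP. The absence is therefore not read as a difference.

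**Figure D3:**
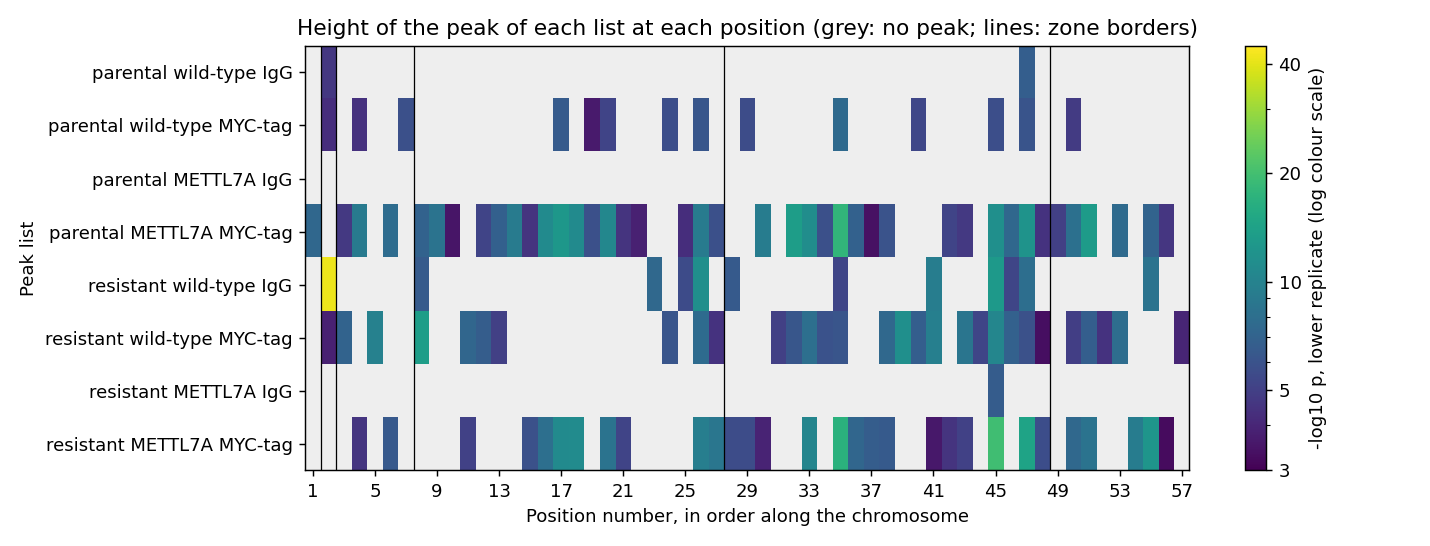
Height (−log10 p of the lower replicate, colour on a log scale) of the highest peak of each of the 8 lists (y axis) at each of the 57 positions (x axis, numbered along the chromosome), with grey where a list has no peak and lines at the borders of TMEM170B, its start, the stretch between the genes, and ADTRP. The column of the TMEM170B start is filled in the 4 wild-type lists and empty in the METTL7A lists, and the ADTRP columns 45 and 47 are filled in 6 lists each. The METTL7A IgG lists hold only 70 and 96 peaks in all.

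Across lists, 42 of the 57 positions were held by 2 or more lists (73.7%), beside 13.0% of the 11138 positions of the genome. Held by 3 or more were 19 (33.3%, against 3.20%), and by 4 or more 6 (10.5%, against 1.24%). A parental and a resistant list shared 38 (66.7%, against 8.86%), and a METTL7A and a wild-type list shared 29 (50.9%, against 5.83%). All 4 MYC-tag lists held 5 (8.77%, against 0.655%). Positions in METTL7A lists alone numbered 17 (29.8%, against 39.8%) and in wild-type lists alone 11 (19.3%, against 54.4%). A stretch with many peaks in several lists gives shared positions more often, and these shares were not tested.

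Of the 57 positions 45 were in MYC-tag lists alone (78.9%, against 65.3% of the genome's). A single position was in IgG alone (1.75%, against 27.5%), a resistant wild-type IgG peak of 7.52 at 6:11673008–11673333. The other 15 of the 16 IgG peaks lay at positions that also had a MYC-tag peak. The same share over all IgG peaks of the genome was not counted, so nothing is read from it. Single-list positions numbered 15 (26.3%, against 87.0%).

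As given above, 73.7% of the region's positions and 13.0% of the genome's were in 2 or more lists. Both METTL7A MYC-tag lists and no other, a pattern that needs 2 lists, held 10 positions (17.5%), beside 228 positions of the genome (2.05%). The highest by their lower height were the 11 and 11.1 pair between the genes, the 11 and 8.08 pair nearer to TMEM170B and the pair in the TMEM170B body, all given above. Then came a pair in ADTRP (6:11743565–11745325), with 2 parental peaks of 6.95 and 6.29 and a resistant one of 7.36, and a pair between the genes (6:11638364–11639136) with 4.53 and 5.22. Such positions numbered 6 once a −log10 p of at least 5 was required of both replicates.

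Of the 13 reproducible parental METTL7A MYC-tag peaks, 12 overlapped a matched peak of another list (92.3%, against 87.6% of all 145 of that list). Of those 13, 9 overlapped a wild-type or IgG peak (69.2%, against 71.0%). Of the 8 resistant ones, 7 overlapped another list (87.5%, against 96.2% of 104) and 6 a wild-type or IgG peak (75%, against 82.7%). For the 5 resistant wild-type MYC-tag peaks, 4 overlapped another list (80%, against 93.7% of 63). These shares, which pool several other lists, were near those of the whole lists. Between the METTL7A MYC-tag lists, 11 of the 13 parental peaks overlapped a resistant one (84.6%, against 80.7% of the list) and 7 of the 8 resistant peaks a parental one (87.5%, against 91.3%). Against the wild-type MYC-tag list of the same state the overlaps were 6 of 13 in parental (46.2%, against 48.3%) and 4 of 8 in resistant cells (50%, against 66.3%). Overlap with parental wild-type IgG was 1 of 13 (7.69%, against 26.9%), 1 of 8 (12.5%, against 35.6%) and 0 of 5 (against 38.1%). Of the 5 resistant wild-type MYC-tag peaks, 1 overlapped a parental wild-type MYC-tag peak (20%, against 63.5%). These small counts were not tested.

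**Figure D4:**
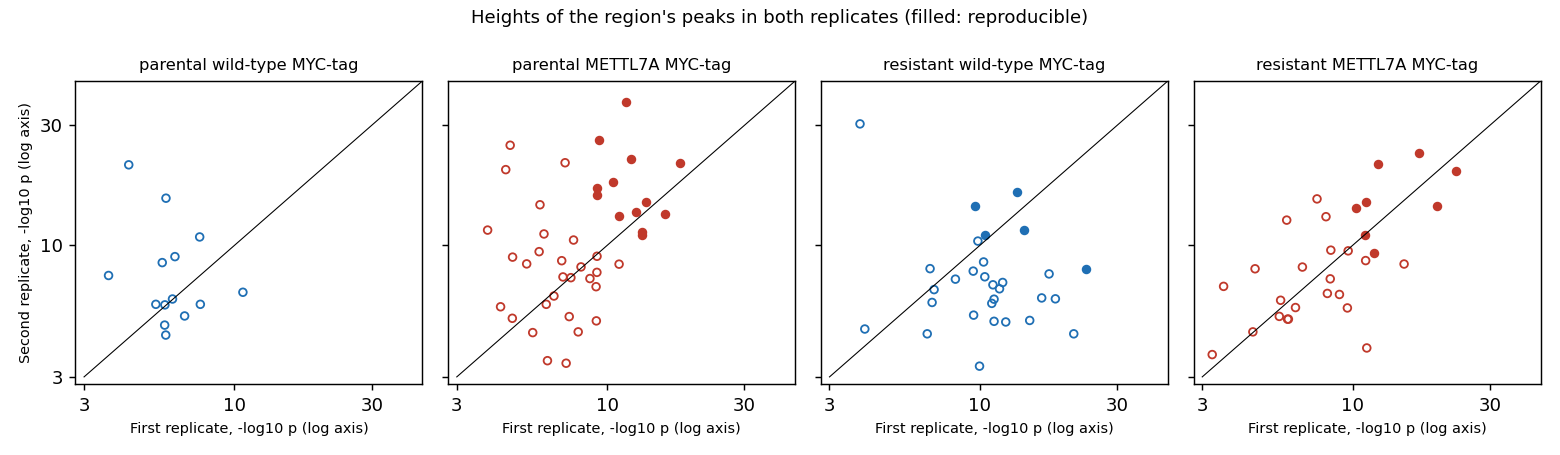
Height of each of the region's peaks (−log10 p) in the first replicate of the file (x axis) against the second (y axis), both on log axes, in the 4 MYC-tag lists, with the line of equality and filled points for reproducible peaks. In resistant wild-type MYC-tag 23 of 30 points lie below the line, and its point at 3.83 and 30.4 is the TMEM170B start.

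The replicates of a list differed in height. In resistant wild-type MYC-tag the first replicate was the higher in 23 of 30 peaks of the region, with medians of 10.7 and 6.85, and in 65.4% of all peaks of that list. In parental METTL7A MYC-tag it was the higher in 17 of 42 (medians 7.78 and 9.24), beside 38.1% of the list. In resistant METTL7A MYC-tag it was so in 15 of 30 (8.38 and 8.31), beside 48.9%, and in parental wild-type MYC-tag in 5 of 14 (5.78 and 6.32), beside 48.5%. The replicate numbers of these columns are not given in the files. Summits of the replicates lay a median of 118 bp apart in the parental METTL7A MYC-tag list and 66.5 bp in the resistant one, and 73.5 and 151.5 bp in the wild-type ones. Over those whole lists the medians were 169, 174, 173 and 164 bp. Median peak widths in the region and the whole list were 733 and 692 bp in parental METTL7A MYC-tag, 635 and 685 bp in resistant METTL7A MYC-tag, and 1152.5 and 594.5 bp in parental wild-type IgG, where the region held 2 peaks.

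Median heights in the region were 7.08 in parental and 7.02 in resistant METTL7A MYC-tag, against 4.76 and 4.49 over those lists. They were 5.67 in parental and 6.69 in resistant wild-type MYC-tag, against 4.40 and 4.15, and 7.52 in resistant wild-type IgG against 4.52. The 2 parental wild-type IgG peaks had a median of 5.70, against 3.70. In each of these 6 lists, IgG and MYC-tag alike, the region's median lay above that of the list. The 1 resistant METTL7A IgG peak stood at 6.61, against a list median of 3.77. Since the region was chosen for its reproducible peaks in these lists, nothing is read from the higher medians.

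Of 2043 bins of 1 Mb with a peak in any list (median 3 peaks), this one had rank 3 by the number of peaks, after the 2 bins of the EGFR region on chromosome 7 (549 and 227). It held 43.3% of the 305 peaks of chromosome 6. The EGFR region (7: 54 to 56 Mb) had 30 matched peaks per Mb in parental wild-type IgG and 64 in parental wild-type MYC-tag, where the chromosome 6 region had 2 and 14. In parental METTL7A MYC-tag the densities were 82.5 and 42. The CDK4 region (12: 57 to 59 Mb), around a cell-cycle kinase gene, had 7.50, 8 and 16 per Mb in the same 3 lists. These CDK4 densities average over 2 Mb. Its bin at 58 to 59 Mb alone held 14, 15 and 22 peaks in those lists. In resistant wild-type IgG the density was 53 in the EGFR region, 14 in the CDK4 region and 13 in the chromosome 6 region. Of the EGFR region's 229 positions 35.8% were in 4 or more lists, and of the CDK4 region's 49 positions 32.7%, where the chromosome 6 region had 10.5%. In both METTL7A MYC-tag lists and no other were 11.4%, 4.08% and 17.5%. The regions were chosen for their counts, so these differences were not tested.

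The 3 other 1 Mb bins with at least 20 peaks whose shares of the 8 lists were most like those of this bin lay at 190 to 191 Mb of chromosome 4 (Pearson r = 0.829 over 8 lists, 32 peaks), at 81 to 82 Mb of chromosome 8 (0.816, 20 peaks) and at 133 to 134 Mb of chromosome 8 (0.793, 31 peaks). All bins share the same 8 lists and their lengths, and r is a description of 130 bins without a test. In each of the 3 bins the parental METTL7A MYC-tag list had the most peaks (14, 9 and 11), and both METTL7A IgG lists had 0. The bins were picked for this likeness, so nothing is read from these counts. The METTL7A IgG lists hold 70 and 96 peaks in all, and the chromosome 6 bin itself had 1 in the resistant one.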

How the data were processed

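Per the labels' protocols, chromatin was prepared with a ChIP-IT Express kit, sheared on a Covaris instrument and made into libraries with an EpiCypher CUT&RUN kit. GRCh37, MACS2 2.2.7.1, Bowtie2 2.4.2, bedtools 2.30, SAMtools 1.16, deepTools 3.5.1, FastQC and Trimmomatic are listed in the submitters' processing notes, without their roles. Which control library and which duplicate and blacklist filters were used is not given in the sources used here. Each of the 8 lists deposited by the authors has 20 columns in the layout of the IDR method, which matches the peaks of 2 replicates. Heights and the global IDR are −log10 values as deposited, with a lowest height of 3.00. The authors' deposited score (a scaled IDR) was not used. The files hold no read counts, so depth is unknown. As 1 list combines both replicates, no value has a replicate error, and labels call the samples biological replicates.

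Peaks were assigned by midpoint, joined into positions and overlapped (at least 1 bp) in Python 3.11.15 with pandas 2.3.3, checked on simulated peaks. A peak was placed at the TMEM170B start within 5000 bp of it, and in its body up to the RefSeq gene length. Coordinates are 1-based. Shares carry exact (Clopper-Pearson) 95% intervals. Named were the reproducible peaks of the region, the highest of each list, positions in 4 or more lists, and the 5 highest in both METTL7A MYC-tag lists and no other. Further positions (those of the gene starts and bodies, the first and last, and the flank and IgG-only peaks) were named after their values were seen. The members and lists were chosen with earlier results of these data known. Alternatives were a stricter and a looser IDR, a minimum height, narrower flanks, other rules of joining and overlap, and each replicate alone.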

Additional observations from a re-analysis of the deposited data

How the results depend on the processing

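No paired analysis was possible because each list combines both replicates of a group and no result comes from a test; for the same reason no replicate could be left out, and each replicate's own heights were used instead. Counting any overlap with the region changed no count. Where each replicate had to reach a −log10 p of 5, the parental wild-type IgG count was 1, positions in both METTL7A MYC-tag lists and no other numbered 6 instead of 10, and the other 7 counts stayed within 1.5 times. At an IDR of 0.01 the reproducible peaks were 5 in parental METTL7A MYC-tag and 0 each in resistant wild-type MYC-tag and METTL7A IgG. At 0.1 they were 1 in parental wild-type MYC-tag, 3 in resistant wild-type IgG, 11 and 13 in the resistant MYC-tag lists (wild-type, METTL7A). The resistant wild-type MYC-tag count thus went from 0 to 11 over these thresholds. With flanks of 1 Mb the density bounds, by their construction, were 9.33 (parental wild-type MYC-tag), 28 (parental METTL7A MYC-tag) and 20 (both resistant MYC-tag lists), and the resistant wild-type IgG ratio was 26. The median height in the second replicate alone was 12.7 in parental wild-type IgG, 6.32 in parental wild-type MYC-tag, 9.24 in parental METTL7A MYC-tag and 8.31 in resistant METTL7A MYC-tag. In the first alone it was 11.1 in resistant wild-type IgG, 10.7 with MYC-tag in the same cells, 9.82 in resistant METTL7A IgG and 8.38 in resistant METTL7A MYC-tag; the cause was not tested. Joining peaks within 500 bp gave 8 positions in both METTL7A MYC-tag lists and no other, and an overlap of 50% of both peaks gave 12 and 6 overlapping reproducible peaks. Read depth, which sets how many peaks a list can hold, is unknown.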
